A study of Gallus gallus with 4 samples.

Results

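The transposable element (TE) tables of the chick small RNA libraries list 241 repeat families, 1 row each, and 100 of these rows carry the names of old vertebrate repeat groups. They were taken as every row whose name starts with UCON (56 rows), Eulor (21), MER (13), MIR (3), L2 (3), AmnSINE (2), LFSINE (1) or REP (1). The rule uses names alone, so rows such as AmnL2-1 stand outside it, and some members carry a narrower lineage suffix, such as MIR_Aves1 (birds) and L2-1_CPB (a turtle). Gel-purified small RNA of 19 to 38 nucleotides was extracted from cranial midbrain of wild-type embryos (Gallus gallus), grown for about 30 h at 37 °C to stage HH9- (Hamburger-Hamilton 9 minus). The design gives 2 oxidized libraries, made after sodium periodate treatment, and 2 total libraries, made from the untreated portion of the same samples. Whether replicates stand for separate pools of embryos is not stated. The p-values thus set the group difference against the spread between these libraries, which may be technical. The tissue label was not checked against marker genes, because the tables pair no gene ID with a name.

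Ancient repeats are remnants of elements that stopped moving long ago, and some copies are conserved because their sequence took on another use. UCON and Eulor families were described from strongly conserved noncoding sequence, MER families are old repeats first named in the human genome, and MIR and L2 are an old SINE and an old LINE. AmnSINE1 copies act as enhancers in the developing mouse brain, and LFSINE, named after lobe-finned fish, gave rise to conserved enhancers in land vertebrates. PIWI-interacting RNAs (piRNAs) silence TEs that can still move, are often antisense to them, and carry a 2′-O-methyl group that protects their 3′ end from periodate. The comparison of oxidized with total libraries asks which small RNAs carry such protection.

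The 2 oxidized libraries held 10981001 and 14081954 assigned reads, and the 2 total libraries 17962725 and 14946049. Levels are given in CPM, reads of a row per 1000000 assigned reads, and so shift with the rest of the library. They are not per length, so levels of different rows are not ranked as abundance. Assigned reads were mostly TE and tRNA reads after oxidation and mostly miRNA reads (75.6% and 68.2%) in the total libraries. Reads of the oxidized libraries came in clumps. Among rows of other genes, 202 had at least 20 reads in oxidized replicate 1 and none in the other oxidized library, with a median of 122 reads. For oxidized replicate 2 there were 218 such rows, with a median of 130.5 reads. Neither total library had any row of this kind. The medians leave out all rows with fewer reads. Among other-gene rows with a read, 122 of 647 in oxidized replicate 1 had exactly 1 read, and 73 of 646 in oxidized replicate 2. If the medians are the reads of 1 molecule, which was not tested, the oxidized libraries hold about 197916 assigned molecules. Rows of 1 read fall outside this estimate.

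Reads were found on 46 of the 100 ancient rows and all 46 had a read in a total library. The share with any read was 46.0%, against 125 of the 141 other TE rows. Both total libraries had reads on 26 rows, and 20 rows had reads in only 1 of them, with 1 to 4 reads each. After oxidation 5 rows had a read and 1 of these, MER133A, had reads in both libraries. By name, reads fell on 21 of 56 UCON rows, 8 of 21 Eulor rows, 9 of 13 MER rows, all 3 MIR rows, both AmnSINE rows, 1 of 3 L2 rows, and the single LFSINE and REP rows.

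The reads were concentrated in few rows. Eulor9C held 50.0% of the ancient repeat reads of the total libraries, and Eulor9C, MER133A and Eulor9A together held 90.7%. Of the 46 rows with a read, 10 had 10 or more reads in both total libraries. The other 36 rows had 1 to 20 reads over both total libraries and 164 reads in all. The highest of these, named after their values were seen, were UCON78 with 12 and 8 reads, MIR_Aves2 with 10 and 7, Eulor5A with 5 and 8 and MER130 with 11 and 2 in total replicates 1 and 2.

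**Figure D1:**
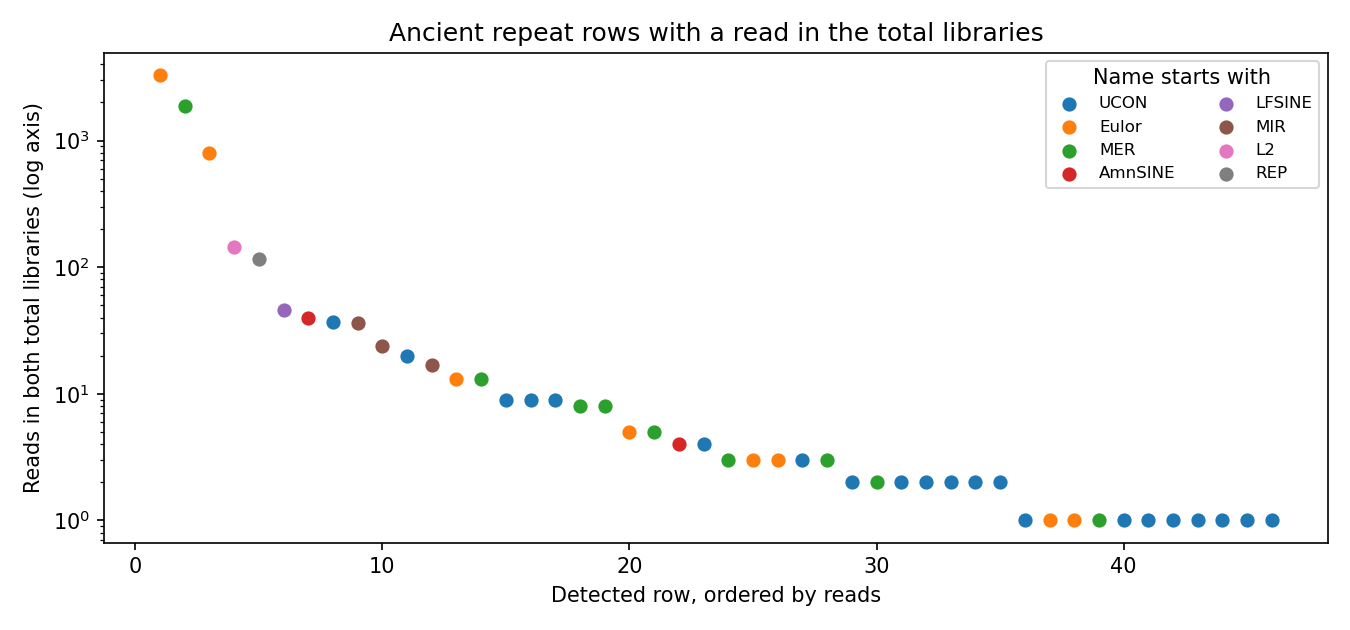
Each point is 1 of the 46 ancient repeat rows with a read, ordered by its reads in both total libraries (vertical log axis) and coloured by the start of its name. Eulor9C (3280 reads), MER133A (1875) and Eulor9A (803) stand above the other rows, and most UCON rows have fewer than 10 reads.

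Summed over the 100 rows, ancient repeats were a small fraction of the oxidized libraries and a larger one of the total libraries, the opposite of most TE rows. They had 237 and 181 reads in oxidized replicates 1 and 2, against 3970 and 2596 reads in total replicates 1 and 2. That is 21.6 and 12.9 CPM after oxidation (exact 95% binomial intervals 18.9 to 24.5 and 11.05 to 14.9), against 221 and 174 CPM in the total libraries (214 to 228 and 167 to 181). The intervals cover counting error alone and take reads as independent, while nearly all oxidized reads came from 3 values of 100 or more reads. The CPM values of the 2 groups do not overlap. The mean was 17.2 ± 6.17 CPM after oxidation and 197 ± 33.5 CPM in the total libraries (SD, n = 2 each), 11.5-fold lower after oxidation. Within same-numbered libraries the level was 10.2-fold and 13.5-fold lower. The 10 rows with 10 or more reads in both total libraries gave nearly the same sum, 17.2 ± 6.11 CPM after oxidation and 192 ± 33.9 CPM in the total libraries, 11.2-fold lower. The 90 rows below that minimum had 1 and 0 reads after oxidation, against 85 and 79 reads in the total libraries.

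The size of this difference rests on the 3 leading rows, which were picked out after their values were seen. Without Eulor9C the sum was 5.76-fold lower after oxidation. Without Eulor9C, MER133A and Eulor9A it was 10.8 and 12.6 CPM with oxidation, against 17.5 and 19.6 CPM in the total libraries, 1.59-fold lower. That remaining oxidized level came almost wholly from 2 values, 118 reads of AmnSINE1 in oxidized replicate 1 and 177 reads of L2-1_CPB in oxidized replicate 2.

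Of all TE reads, ancient repeats made up 0.00445% and 0.00279% after oxidation, against 2.55% and 1.72% without it. The TE rows named Chompy or Harbinger, DNA transposons that here carry crocodilian suffixes, had 1.13 ± 0.199 CPM after oxidation and 996 ± 154 CPM in the total libraries (13 rows), 878-fold lower. CR1 rows, LINEs with a crocodilian or amniote suffix, had 30.5 ± 14.8 CPM after oxidation and 49.9 ± 2.55 CPM in the total libraries (13 rows), 1.64-fold lower. The sum was 5.14-fold higher after oxidation when the 2 CR1 rows with a bird suffix (Aves) were added. The other 115 TE rows had 473284 ± 16814 CPM after oxidation and 8156 ± 1214 CPM in the total libraries, 58.03-fold higher. An exact two-sided permutation test of 2 libraries against 2 cannot go below p = 0.333, so these sums are given as values and none was tested.

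**Figure D2:**
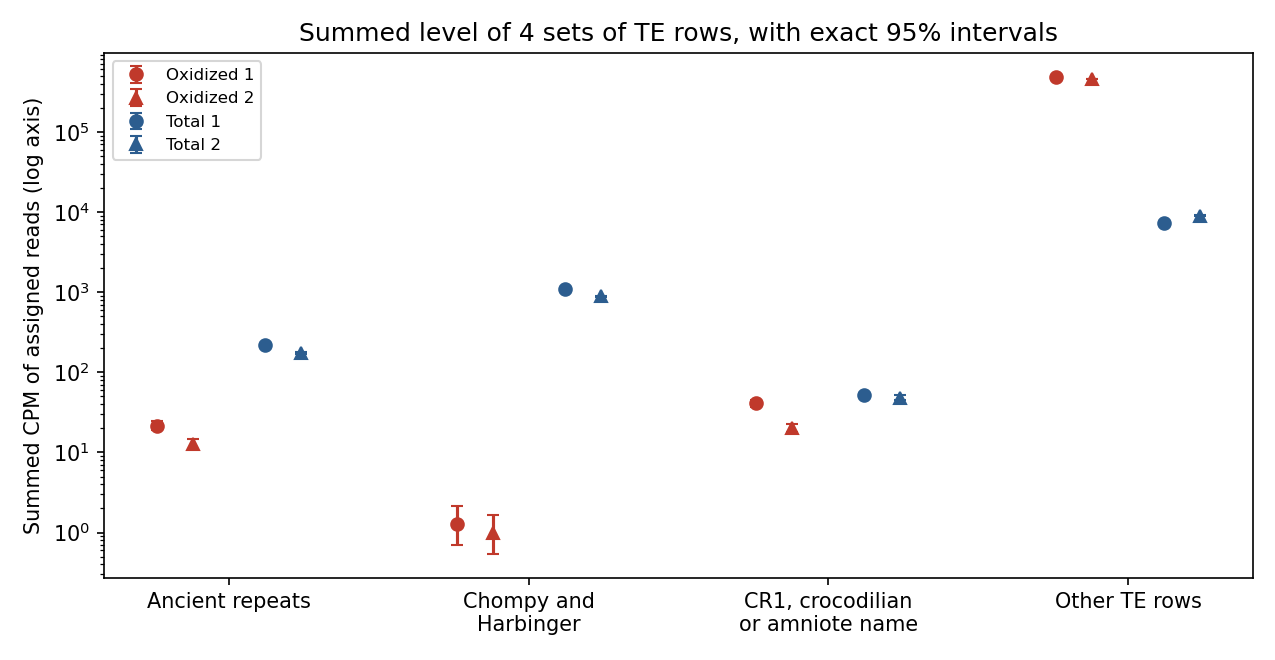
Points are the summed CPM (log axis) of 4 sets of TE rows in each library, oxidized replicates in red and total replicates in blue, with exact 95% binomial intervals that cover counting error alone. Ancient repeats lie at 21.6 and 12.9 CPM in the oxidized libraries, below the 221 and 174 CPM of the total libraries, while the 115 other TE rows lie far higher after oxidation.

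Row by row, 9 of the 100 ancient rows had enough reads to enter the test across all features, and 6 of them (66.7%) were lower after oxidation (edgeR quasi-likelihood test, adjusted p under 0.05). None was higher, at an unadjusted p under 0.05 or by DESeq2 either, and 91 rows were not tested. All 6 rows passed the filter on low counts through their total libraries alone, so their direction was given once they entered, and the count is a description from which nothing is read. The other 3 tested rows, MER133A, L2-1_CPB and AmnSINE1, reached the filter level in both total libraries but in only 1 oxidized library. Their entry thus also leaned on the total libraries. With the replicate number as a block 2 of the 6 calls were left, Eulor9A and Eulor9C, and the same 2 of the 6 with oxidized reads counted as molecules. Without total replicate 1 none was left and without total replicate 2 Eulor9C alone, in fits that assume that a lone library varies like the other group. In the same test 57.3% of all 1326 rows were lower, 760 in number, and 15.7% were higher. Of the 96 TE rows outside the ancient repeats, 13.5% were lower and 74% were higher.

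Rows can also be taken by their reads in the total libraries alone, a choice that itself favours lower oxidized values, so these counts too are a description. Of the 10 ancient rows with 10 or more reads in both total libraries, 8 (80%) had both oxidized CPM values below both total values and none had both above. Of all 1338 rows with that minimum 74.1% were lower in this sense, as were 93.7% of the 397 miRNA rows and 17% of the 88 other TE rows, of which 77.3% had both oxidized values above. No read at all was left after oxidation on 6 of the 10 rows (60%), against 51% of all such rows, 48.6% of the miRNA rows and 6.82% of the other TE rows. Between 0.735 and 4.41 mean CPM in the total libraries, 5 of 7 ancient rows (71.4%) had no oxidized read, against 75.3% of the 689 rows of any table and 12.5% of the 24 other TE rows in that range.

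**Figure D3:**
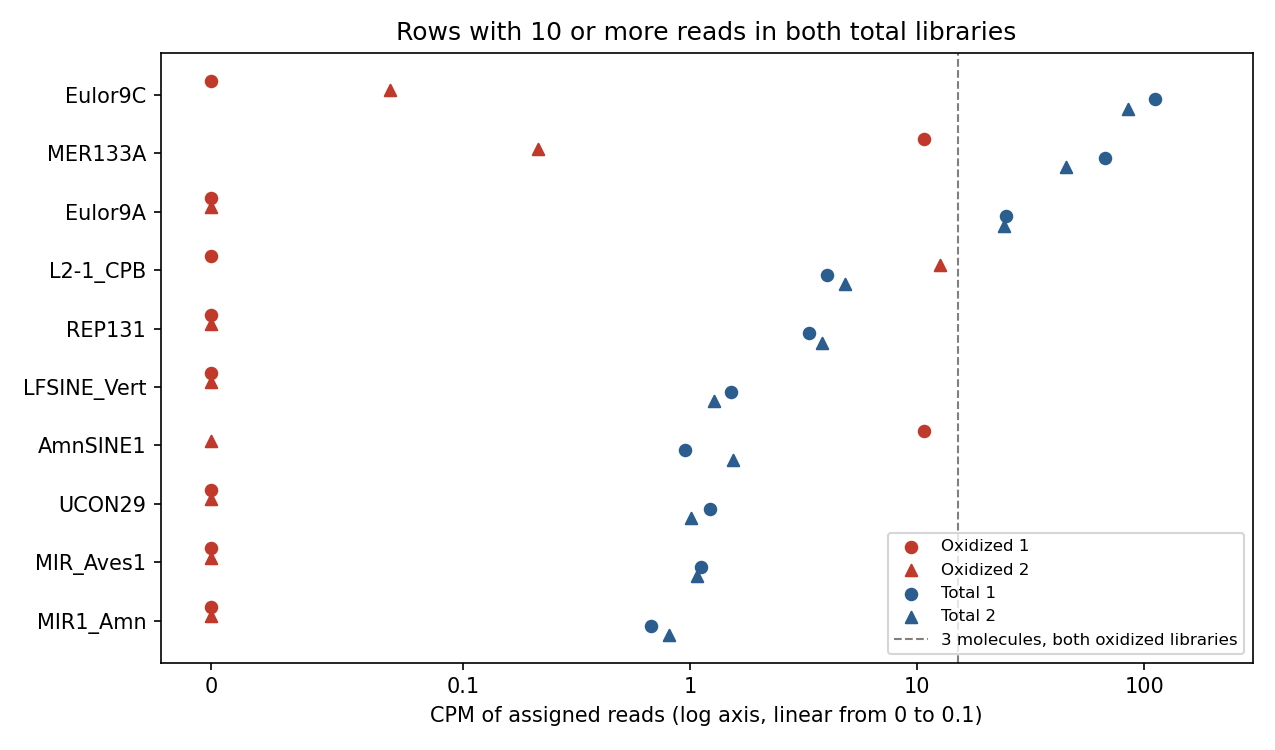
CPM of the 10 rows with 10 or more reads in both total libraries, 1 point a library (red, oxidized; blue, total; circles, replicate 1; triangles, replicate 2), on a log axis that is linear from 0 to 0.1. The dashed line at 15.2 CPM is 3 molecules over both oxidized libraries by the untested estimate of reads per molecule: the total libraries exceed it for Eulor9C, MER133A and Eulor9A.

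Eulor9C and Eulor9A, by name variants of 1 conserved family, gave the strongest contrast. Eulor9C had 0 and 1 reads in oxidized replicates 1 and 2, against 2013 and 1267 reads in total replicates 1 and 2. Both oxidized values lie far below both total values of 112 and 84.8 CPM. Over all reads the level was 2498-fold lower after oxidation, with an exact 95% counting interval of 448 to 98696, and edgeR called the row lower (adjusted p = 0.0059, lower in both oxidized libraries). Eulor9A had no read in either oxidized library, against 441 and 362 reads (24.6 and 24.2 CPM) in the total libraries. Its level was at least 204-fold lower when 3 reads over both oxidized libraries are taken as the floor (edgeR adjusted p = 0.0065). Counted as molecules, both rows had 0 after oxidation, where 19.5 would be expected for Eulor9C and 4.83 for Eulor9A at an unchanged share. With 3 molecules as the floor, which takes none as seen, Eulor9A was at least 1.61-fold lower. For Eulor9C the same floor gave 6.49-fold, which is not a strict lower bound because of the 1 read left out. Both rows passed the filter through the total libraries alone, so the direction of each call was given once they entered. edgeR called both lower with molecules in place of reads (adjusted p = 4.1e-05 for Eulor9C and 0.021 for Eulor9A) and with the replicate number as a block (0.00048 and 0.027). Without total replicate 1 both calls were lost (adjusted p = 0.069 for Eulor9C and 0.30 for Eulor9A), and without total replicate 2 that of Eulor9A was lost (0.31). How the authors' counting divided reads between the 2 variants is not given, and their sum was 0 and 0.071 CPM after oxidation, against 137 and 109 CPM in the total libraries.

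MER133A was the second row by reads, and its oxidized libraries disagreed. It had 118 and 3 reads in oxidized replicates 1 and 2 (10.7 and 0.213 CPM), against 1201 and 674 reads in total replicates 1 and 2 (66.9 and 45.1 CPM). Both oxidized values lie below both total values. The mean was 5.48 ± 7.45 CPM after oxidation and 56.0 ± 15.4 CPM in the total libraries (n = 2 each), but the row did not pass (log2 fold change -3.35, SE 1.84, edgeR adjusted p = 0.19). It did not pass with TMM or the replicate block (edgeR adjusted p = 0.18 and 0.086) or by DESeq2 (0.070). With no filter beyond 1 read it did (edgeR adjusted p = 0.0054). Counted as molecules it was lower (log2 fold change -3.46, edgeR adjusted p = 0.0079). There the 118 reads lie near the median of 122 taken as 1 molecule, against 11.1 molecules expected at an unchanged share. Only oxidized reads were converted and rounded, so the 3 reads of oxidized replicate 2 were dropped, while total reads were kept as counted. That call thus rests on 1 estimated molecule. The log2 fold change was -7.99 without oxidized replicate 1 and -2.38 without oxidized replicate 2, and both fits called the row lower, but they take the spread from the total libraries alone. Of the other 8 MER rows with a read none had one after oxidation, and they had 2 to 13 reads over both total libraries, or 1 in the case of MER132.

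The old LINE and the amniote SINE each had oxidized reads in a single library. L2-1_CPB, an L2 row named after a turtle, had 0 and 177 reads in oxidized replicates 1 and 2 (0 and 12.6 CPM), against 72 reads in each total library (4.01 and 4.82 CPM). Its oxidized values lie on either side of the total values, and it did not pass (log2 fold change 0.51, SE 2.45, edgeR adjusted p = 0.87). AmnSINE1 had 118 and 0 reads in oxidized replicates 1 and 2 (10.7 and 0 CPM), against 17 and 23 reads in total replicates 1 and 2 (0.946 and 1.54 CPM). Here too the oxidized values stand on both sides of the total values (log2 fold change 2.10, SE 2.58, edgeR adjusted p = 0.52). The medians of the clumped rows above were 122 and 130.5 reads, and whether the 118 and 177 reads here are copies of 1 molecule was not tested. By the untested estimate, at an unchanged share, the expected number over both oxidized libraries is 0.873 molecules of L2-1_CPB and 0.246 of AmnSINE1. For both rows the direction depended on which oxidized library was kept. L2-1_CPB was higher without oxidized replicate 1 (log2 fold change 1.51) and lower without oxidized replicate 2 (-9.01), and AmnSINE1 was lower without oxidized replicate 1 (-7.28) and higher without oxidized replicate 2 (3.12), again with the spread of the total libraries alone. The other AmnSINE row, AmnSINE2, was without oxidized reads and had 4 and 0 in the total libraries, and the other L2 rows, L2-1_AMi and L2-1_Crp, had no read.

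The remaining called rows were without oxidized reads and had few total ones. Their direction, too, was given once they passed the filter. REP131, a family with no role stated here, had 60 and 57 reads in total replicates 1 and 2 (3.34 and 3.81 CPM), and edgeR called it lower (adjusted p = 0.0087). LFSINE_Vert had 27 and 19 reads there (1.503 and 1.27 CPM, edgeR adjusted p = 0.0059), UCON29 had 22 and 15 (1.23 and 1.004 CPM, 0.0060) and MIR_Aves1 had 20 and 16 (1.11 and 1.07 CPM, 0.0059). MIR1_Amn, with 12 reads in each total library, had too few to be tested. With 3 reads as the floor REP131 was at least 29.9-fold lower, and LFSINE_Vert, UCON29 and MIR_Aves1 at least 11.6-, 9.31- and 9.12-fold lower. In molecules, however, the 4 rows would be expected at 0.216 to 0.708 over both oxidized libraries at an unchanged share, and their total levels lie below the 15.2 CPM that 3 molecules make up. If the estimate holds, a lower level of these rows was not detectable at this depth, and all 4 calls were lost with molecules in place of reads (edgeR adjusted p = 0.45 for REP131 and 0.62 for the others). The replicate block also ended all 4 calls (edgeR adjusted p = 0.30), as did leaving out total replicate 1 (0.30) or total replicate 2 (0.31).

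UCON rows were the largest name group and nearly silent. Apart from UCON29 the 20 UCON rows with a read had 74 reads over both total libraries, at most 20 a row, and 35 UCON rows had no read. UCON1 was the single UCON row with a read after oxidation, 1 and 0 reads in the oxidized libraries, against 1 and 0 reads in the total libraries. All 56 together had 0.0911 and 0 CPM after oxidation, against 3.17 and 3.61 CPM in the total libraries.

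The total libraries gave values of like size for most of these rows but differed beyond counting error. Over the 14 ancient rows with at least 10 reads in both total libraries together, chi-square per degree of freedom was 10.8. Most of it came from Eulor9C (2013 and 1267 reads in total replicates 1 and 2) and MER133A (1201 and 674). It thus does not show a difference beyond counting error for each row. The ratio of CPM in total replicate 1 to total replicate 2 had a median of 1.03 over the 10 rows, from 0.615 for AmnSINE1 to 1.48 for MER133A. It was 1.32 for Eulor9C and 1.01 for Eulor9A.

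Strand differed between the rows. A reverse-strand read is antisense to the annotated element: the reverse tables held at most 0.00257% of the reads of tRNA, whose strand is known. For miRNA reads that share was 1.04% and 1.65% in oxidized replicates 1 and 2, against 0.0751% and 0.0767% in total replicates 1 and 2. Summed over the 100 rows, 49.8% and 98.3% of reads were antisense after oxidation, against 66.9% and 69.5% in the total libraries. The oxidized shares lie on both sides of the total ones. In oxidized replicate 1 the share came from 118 sense reads of MER133A and 118 antisense reads of AmnSINE1, with 1 read of UCON1. In oxidized replicate 2, antisense reads of L2-1_CPB made up 177 of the 181 reads. The 115 TE rows outside the 3 other sets were 96.3% and 95.5% antisense after oxidation, against 87.8% and 88.4% in the total libraries.

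Within the total libraries the leading rows were each almost wholly of 1 strand, but not of the same one. Eulor9C was 99.97% antisense (3279 of 3280 reads, exact 95% interval 99.83 to 100%) and Eulor9A 99.9% antisense (802 of 803, 99.3 to 100%). MER133A was 0.107% antisense (2 of 1875, 0.0129 to 0.385%), and all 121 of its oxidized reads were sense as well. The pooled antisense share of ancient repeats in the total libraries thus changed with the rows included: it was 68.2% ± 1.84 over all rows, 36.6% ± 5.32 without Eulor9C and 61.5% ± 2.44 without all 3 (SD, n = 2).

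Among the other 7 rows of at least 10 reads a library, L2-1_CPB and UCON29 were mostly antisense in the total libraries. L2-1_CPB was 88.9% and 95.8% antisense in total replicates 1 and 2 (exact 95% interval over both, 86.7 to 96.1%), and its 177 oxidized reads were all antisense. UCON29 was 90.9% and 86.7% antisense (74.6 to 97%). AmnSINE1 was 29.4% and 43.5% antisense in the total libraries (22.7 to 54.2%), while its 118 oxidized reads were all antisense. The counting interval of that share is 96.9 to 100%. Copies of 1 molecule would be 1 observation of strand, and whether these reads are such copies was not tested. REP131 was 56.7% and 40.4% antisense in total replicates 1 and 2, and LFSINE_Vert 70.4% and 42.1%. The shares of the MIR rows rest on few reads, and whether they differ between the total libraries was not tested. MIR_Aves1 was 50.0% and 18.75% antisense in total replicates 1 and 2 (10 of 20 and 3 of 16 reads, 20.8 to 53.8% over both). MIR1_Amn was 33.3% and 8.33% antisense (4 of 12 and 1 of 12 reads, 7.13 to 42.2% over both, mostly sense). The 36 rows with fewer reads were 50.6% and 60.8% antisense together (39.5 to 61.6% and 49.1 to 71.6%), among them Eulor5A with all of its 13 reads antisense.

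**Figure D4:**
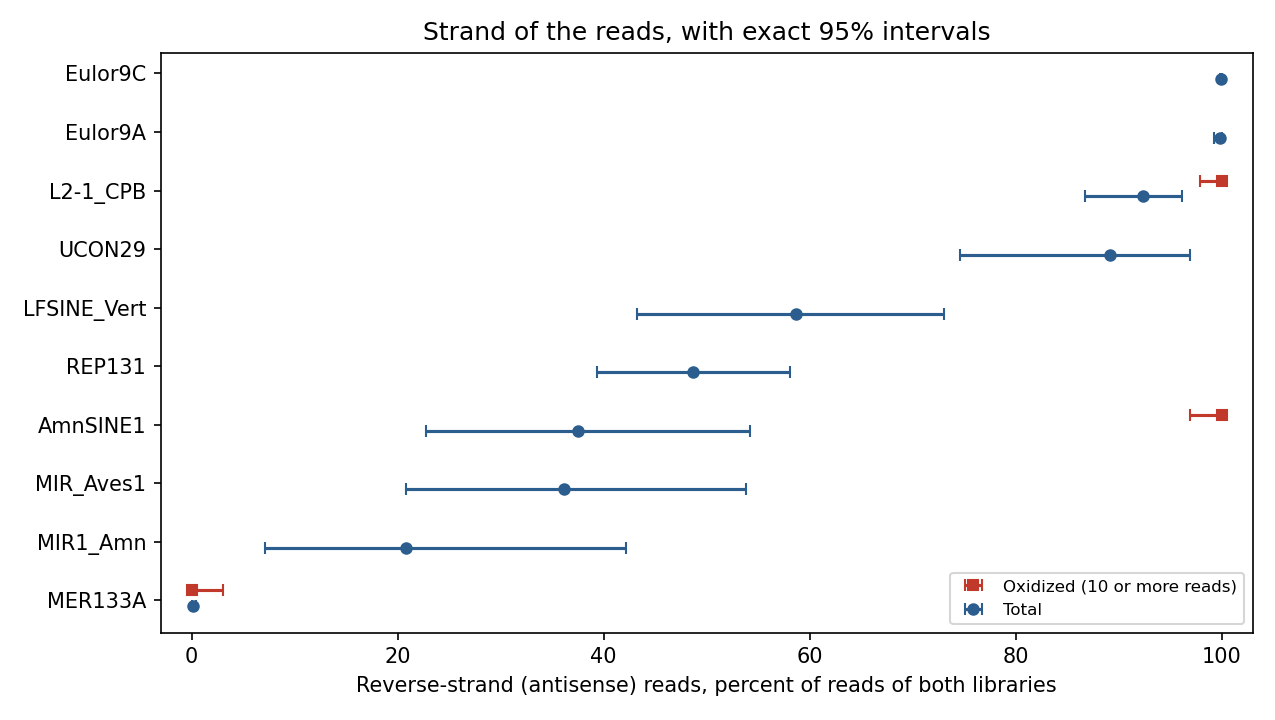
Percent of reads on the reverse strand for the 10 rows, over both libraries of a group, with exact 95% binomial intervals; oxidized values (red squares) are shown for rows with 10 or more oxidized reads and total values as blue circles. In the total libraries Eulor9C lies at 99.97%, Eulor9A at 99.9% and MER133A at 0.107%. AmnSINE1 has a 100% share after oxidation against 37.5% in the total libraries. Its 118 oxidized reads are all from oxidized replicate 1, and whether they are copies of 1 molecule was not tested.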

How the data were processed

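For each library the authors deposited whole-number read counts per feature, made with featureCounts on galGal6 per the submitters' processing notes. The aligner, the annotation and the handling of reads with more than 1 match are not given in the sources used here, so the division of reads between similar families is uncertain. Each library has 6 tables (TE, miRNA, other genes, other repeats, tRNA, rRNA), each unstranded and reverse-strand, 48 files in all. CPM is a count over the summed unstranded counts of a library. One fit over all rows used edgeR 4.0.16 under R 4.3.3 (glmQLFit, glmQLFTest, default filterByExpr, no TMM factor, Benjamini-Hochberg adjustment over 1326 rows, threshold 0.05). TMM assumes that most rows are unchanged, which is not given here. The SE is the log2 fold change over the square root of F. The fit was also run on simulated data. Those counts lacked the read clumps of the oxidized libraries, so the run does not show how the fit behaves on clumped reads. DESeq2 1.42.0, TMM and other library sizes were alternatives. Rows were named by rule if tested, if they had 10 or more reads in both total libraries, or if they had an oxidized read (11 rows). Outside this rule, MER132, AmnSINE2, L2-1_AMi and L2-1_Crp were named beside other rows of their name group. UCON78, MIR_Aves2, Eulor5A and MER130 were named after their values were seen. Intervals are exact (95%, scipy 1.17.1). Intervals and floors (3 reads, 0.120 CPM over both oxidized libraries) cover counting error only, since PCR copies are not independent molecules. The replicates were not copies of each other (chi-square per degree of freedom 239 between the oxidized and 95.8 between the total libraries).

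The members, lists and alternatives were chosen with earlier results of these data known. The CR1 set had been defined to take any lineage suffix other than GG, and is given with and without its bird suffix. The series states that samples were divided before oxidation. The reported fit had no replicate term, and a fit with the replicate number as a block was an alternative, although no label says what the number marks. Their deviations from the group means correlated at r = 0.0527 across 1326 rows, which are not independent replicates.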

Additional observations from a re-analysis of the deposited data

How the results depend on the processing

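The same 6 rows were called lower with TMM (57.5% of all rows tested were lower) and with DESeq2 (54.4%). They were also called lower with library sizes that leave out miRNA (63.3%) or rRNA and tRNA (56.3%). With no filter beyond 1 read 46 ancient rows were tested, and 12 were lower (26.1%, against 22.2% of all rows tested). Of the 9 rows tested otherwise, 2 were lower with the replicate block (22.2%, against 12.5% of all rows). With oxidized reads counted as molecules 3 of the 9 were lower (33.3%, against 15.3%). Leaving out 1 library gave 0 to 8 lower and 0 to 1 higher. The fewest came without total replicate 1 (0, with 1 at an unadjusted p under 0.05, and 4.6% of all rows) and total replicate 2 (1, Eulor9C, and 5.05%). These fits assume that the lone total library varies like the oxidized libraries. The most lower calls came without oxidized replicate 1 or 2, and the share of all rows called lower was also highest there. The spread is then that of the total libraries alone, so nothing is read from those counts. The row called higher was L2-1_CPB without oxidized replicate 1 (log2 fold change 1.51) and AmnSINE1 without oxidized replicate 2 (3.12). The replicate block reversed L2-1_CPB (log2 fold change -2.54) and AmnSINE1 (-0.996), neither of which passed, and beyond the 4 lost calls it changed no other call. Leaving miRNA out reversed L2-1_CPB (-1.30), and leaving out 1 oxidized library gave L2-1_CPB a range of -9.01 to 1.51 and AmnSINE1 one of -7.28 to 3.12. TMM shifted the median log2 fold change of all rows by -0.19, DESeq2 by -0.49, leaving out miRNA by -1.82 and leaving out rRNA and tRNA by 0.44.

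The log2 ratio of the summed level was -3.52. It was -5.37 with a library size free of miRNA, -9.20 with TE reads alone as library size, -2.53 without Eulor9C and -0.67 without Eulor9C, MER133A and Eulor9A, the last chosen after seeing the data. Leaving out 1 library gave -3.94 to -3.19, and the replicate block gave -3.56. Over rows with 10 or more reads the ratio was -3.49, with -3.98 at a minimum of 20 reads, -5.34 without miRNA in the library size and -3.90 to -3.16 without 1 library. The ratio of the share of TE reads was -9.20, and -9.58 to -8.89 without 1 library. The antisense share of the total libraries was 36.6% without Eulor9C and 61.5% without the 3 rows. The causes were not tested. By the untested estimate of molecules, all rows but Eulor9C, MER133A and Eulor9A lie below 3 molecules over both oxidized libraries at an unchanged share.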

Other observations

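No row of the other 5 tables had the same 4 counts as Eulor9C, MER133A or Eulor9A. Within 5% of Eulor9C in both total libraries were 2 rows, of which the miRNA row ENSGALG00000025544 was nearest, with 0 and 2 reads after oxidation, against 2059 and 1310 reads in total replicates 1 and 2. All of its reads lay on its own strand. Within 5% of Eulor9A were also 2 rows, the nearest being ENSGALG00000054063 of the other genes, with no read after oxidation, against 430 and 367 reads in the total libraries. No row came within 5% of MER133A. These rows were looked up after the values were seen, and whether any of the reads are shared was not tested.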
